A study of Aquarana catesbeiana with 18 samples.

Results

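The genes described here encode the protein parts of the cytosolic ribosome of the American bullfrog, Aquarana catesbeiana. They were taken by name: rows whose symbol begins with RPL or RPS and a digit, or with RPLP, or is FAU, without the RPS6 kinases, RPS19 binding protein and mitochondrial ribosomal proteins. This gave 118 of 24636 genes, 45 of the small subunit and 73 of the large subunit. They fall into 78 families named after 1 protein each. In 26 of these families more than 1 row carries the same name. Of the 118 genes, 75 are listed by a symbol and 43 by a locus number, and all 118 are annotated as protein coding. Gene symbols carry the roles known from other vertebrates, mainly human and mouse.

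A ribosome joins a small subunit, which reads the messenger RNA, to a large subunit, which links the amino acids. Most ribosomal proteins are present once in each ribosome, and the messenger RNAs of these proteins are among the most abundant in most animal cells. In mammals these messenger RNAs begin with a terminal oligopyrimidine (TOP) tract, through which mTOR signalling and the protein LARP1 set their translation and stability. A few ribosomal proteins have a paralog that can take their place, such as RPL3L for RPL3 in mammalian muscle.

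RNA of the skin of the back, the liver and the eyes was sequenced from bullfrogs of both genotypes, with 3 libraries for each genotype in each tissue and 18 in all. The labels give the genotype only as wild-type or "abino", with no allele, age or treatment, and do not tie libraries to animals. P-values therefore measure the spread between these libraries, which may be partly technical. Whole tissues were used, so fewer cells of a type and less RNA per cell cannot be told apart. Libraries held 34.3 to 39.2 M counts. Hepatocyte markers summed to between 124571 and 167615 CPM (counts scaled to library depth) in liver libraries, and photoreceptor and lens markers to between 61107 and 93697 CPM in eye libraries. Epidermal markers summed to between 2385 and 5789 CPM in skin libraries, with TP63, a regulator of epidermal stem cells, at 0 in every skin library. The eye libraries differ in lens content: 13 crystallin genes took 10.7%, 16.8% and 11.8% of counts in wild-type eyes 1, 2 and 3, but 0.265%, 0.279% and 6.84% in albino eyes 1, 2 and 3. Albino eyes 1 and 2 thus stand apart as nearly free of crystallin transcripts. Main differences that use albino eyes are therefore also given with albino eyes 3 as the only albino eye library.

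Skin devoted the largest share of its counts to ribosomal protein genes and wild-type eyes the smallest. The share was 15.8%, 17.7% and 22.6% in wild-type skin 1, 2 and 3 and 23.2%, 19.4% and 16.1% in albino skin. It was 7.67%, 9.23% and 10.8% in wild-type liver and 12.2%, 7.72% and 9.10% in albino liver. Wild-type eyes had 5.67%, 5.40% and 5.69%, and albino eyes 9.86%, 8.35% and 9.42%. Within skin and within liver the genotypes overlapped, and in eyes every albino library lay above every wild-type library. With the crystallin genes left out of the totals, the shares were 6.35% to 6.49% in wild-type eyes and 8.37% to 10.1% in albino eyes. These ranges did not overlap. Only the crystallin counts are left out this way, and other transcripts of lens cells stay in the totals. Per length, as FPKM (counts scaled by gene length and library depth), the genes took 32.0% to 39.9% of all FPKM in skin, 18.3% to 26.7% in liver, 9.25% to 11.5% in wild-type eyes and 20.7% to 23.2% in albino eyes. Among the 100 genes of highest FPKM in a library, 60 to 64 were ribosomal protein genes in skin, 36 to 52 in liver, 25 to 30 in wild-type eyes and 49 to 56 in albino eyes.

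**Figure D1:**
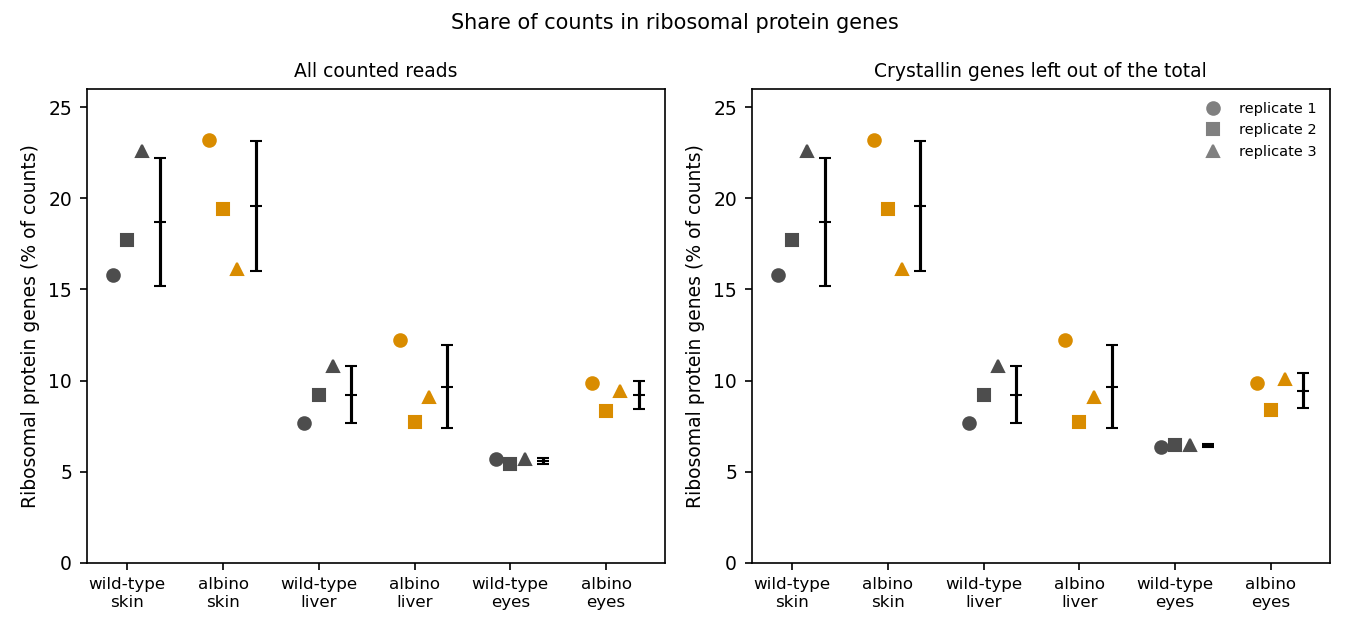
Share of counts (%) in the 118 ribosomal protein genes, by library, with replicate numbers as symbols, grey for wild-type and orange for albino, and the mean with SD (n = 3) beside each group. The right panel leaves crystallin genes out of the total; in both panels the albino eye libraries lie above the wild-type eye libraries, while the genotypes overlap in skin and liver.

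The balance between the subunits hardly moved. Small subunit genes held between 38.9% and 40.9% of the ribosomal protein counts in each of the 18 libraries. The order of the genes by FPKM was also much alike between groups: over the 75 genes with a symbol, Spearman's rho of group means ran from 0.880 (albino skin with wild-type eyes) to 0.967 (wild-type with albino liver), as a description across genes. RPS20, a small subunit protein, had the highest mean FPKM, 7437 over the 18 libraries, followed by the large subunit stalk protein RPLP1 with 7000, then RPS2 with 4218, RPS10 with 3623 and RPL32 with 3581. By group mean RPLP1 led in wild-type skin with 11529 ± 3233 FPKM (SD, n = 3) against 10498 ± 2460 for RPS20. In wild-type liver RPS20 led with 6214 ± 889 against 4565 ± 567. These SDs are between libraries and do not measure the spread of the gap within a library, which was not tested.

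Other members with known roles lay in the middle of this range. RPLP0, the base of the large subunit stalk, had 3758 ± 853 FPKM in wild-type skin, 2073 ± 411 in wild-type liver and 1442 ± 62.9 in wild-type eyes (SD, n = 3). RPS6, the target of S6 kinase, had 3229 ± 490, 1693 ± 427 and 1196 ± 33.6 FPKM in the same tissues, and RPL5, which with RPL11 carries 5S rRNA, had 4037 ± 465, 2222 ± 410 and 1222 ± 28.5. In each of these genes the wild-type skin libraries lay highest and the wild-type eye libraries lowest by group mean. At the other end, RPL13 was listed near 0, with a mean of 0.0353 FPKM. The 5 lowest members were all locus-number rows, namely LOC141141306 (RPL8), LOC141134636 (FAU), LOC141141622 (RPS19), LOC141105881 (RPL31) and LOC141148867 (RPL21), with means from 0.00109 to 0.0193 FPKM. In all, 19 members had under 1000 counts over the 18 libraries, 18 of them locus-number rows.

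Whether loss of pigment goes with changes in eyes, skin and liver is the question of the genotype comparisons. In eyes, ribosomal protein genes were higher in albino than in wild-type libraries. Counts of all genes were compared by edgeR's quasi-likelihood test, with Benjamini-Hochberg adjustment over all genes tested and a gene called at an adjusted p under 0.05. Of 106 members that passed the count filter, 35 were called higher and 0 lower, where 5.1% of all genes tested were called higher. The called members comprised 15 of 41 small subunit and 20 of 65 large subunit genes, with log2 differences from 0.44 to 1.90. The median log2 difference was 0.52 over the 106 members and 0.01 over all genes, and 104 of the 106 were positive. In 84 members every albino library lay above every wild-type library, against 19% of all genes tested.

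**Figure D2:**
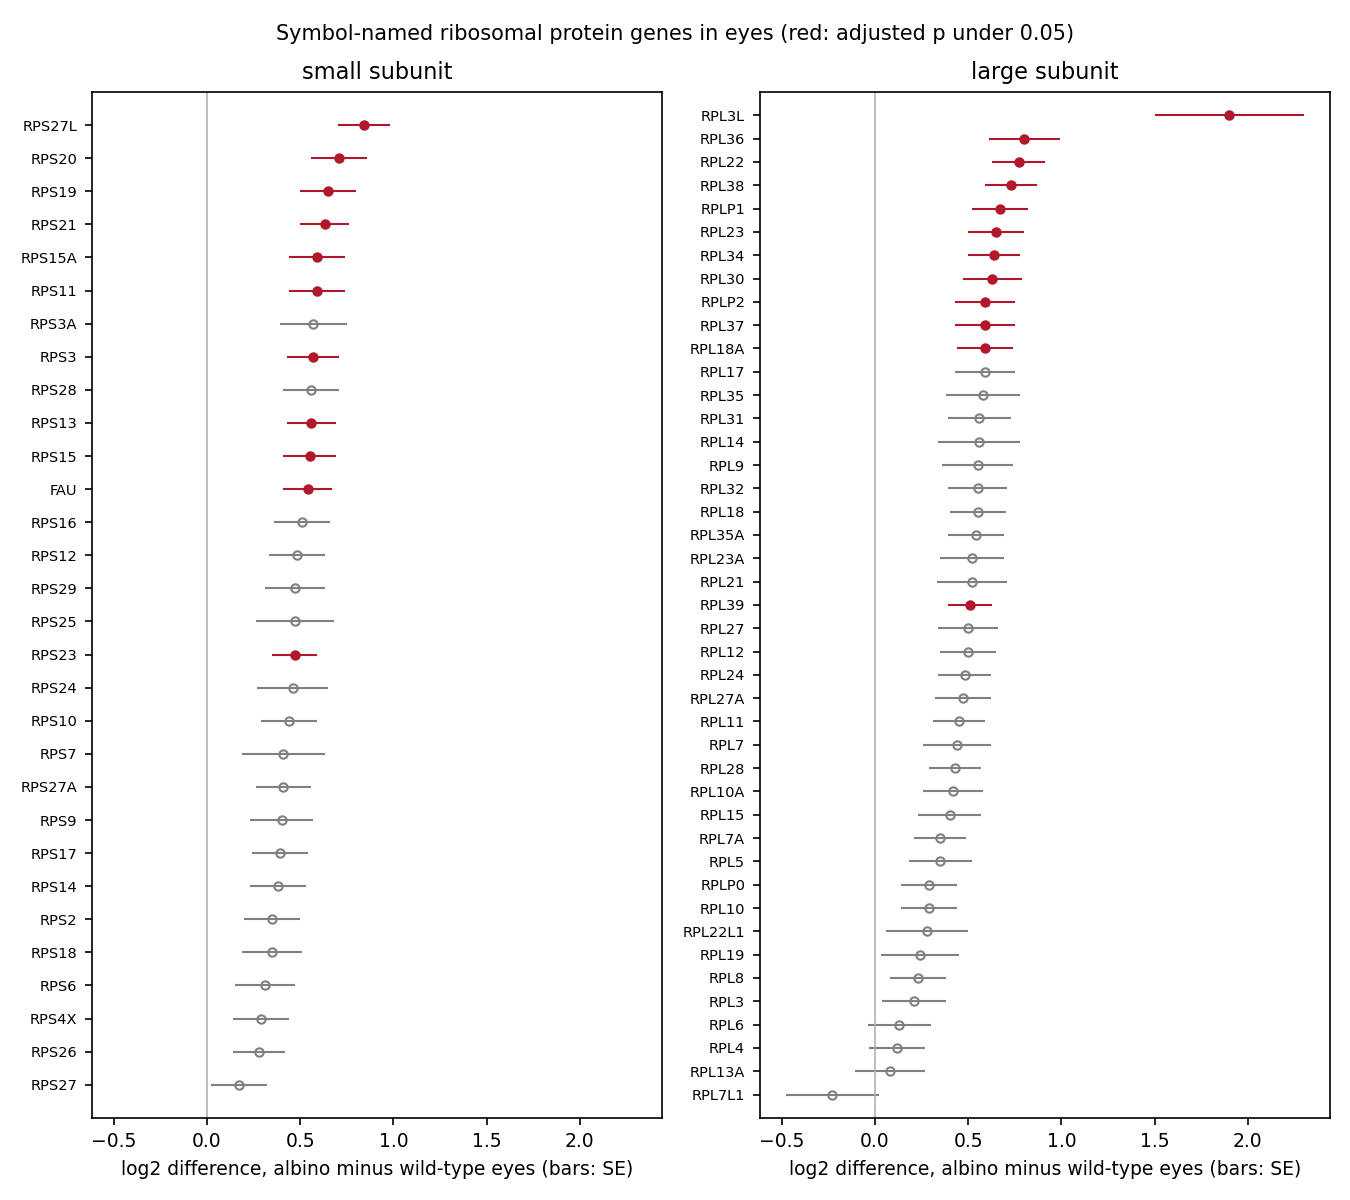
Log2 difference of albino minus wild-type eyes with SE (edgeR, n = 3 libraries per group) for most ribosomal protein genes with a symbol, small subunit left and large subunit right, filled red where the adjusted p is under 0.05. Nearly all points lie to the right of 0, RPL3L stands apart at 1.90, and RPL7L1 is the only one of these genes to the left, at -0.23.

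The clearest case was LOC141108761, the leading RPL36A row, whose protein sits near the exit site of the large subunit. It had 207, 248 and 226 scaled CPM in wild-type eyes and 397, 405 and 395 in albino eyes, a log2 difference of 0.81 ± 0.11 (SE; adjusted p = 0.00729). The groups lay far apart, and this was the only call that held without each of the 6 libraries in turn. RPS27L, a paralog of RPS27, had 20.2, 23.3 and 25.7 CPM in wild-type eyes and 44.6, 36.4 and 42.8 in albino eyes, a difference of 0.84 ± 0.14 (adjusted p = 0.0136). RPL22, a large subunit protein that also binds other RNAs, had 219, 235 and 262 against 450, 344 and 425 CPM (0.77 ± 0.14, adjusted p = 0.0175). RPL38, which in mice bears on the translation of Hox messenger RNAs, had 138, 161 and 164 against 264, 219 and 287 CPM (0.73 ± 0.14, adjusted p = 0.0185). In RPS27L, RPL22 and RPL38 albino eyes 2 was the lowest albino library, still above all wild-type libraries. With albino eyes 3 as the only albino eye library, the log2 difference was 0.79 for LOC141108761, 0.88 for RPS27L, 0.83 for RPL22 and 0.89 for RPL38.

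Members of one complex did not all pass the test. Of the stalk, RPLP1 rose by 0.67 ± 0.15 (adjusted p = 0.0286) and both RPLP2 rows rose, by 0.59 ± 0.16 for the row with the symbol (adjusted p = 0.0484) and 0.62 ± 0.13 for LOC141128405 (adjusted p = 0.0261). RPLP0 had 1675, 2057 and 1925 CPM in wild-type and 2164, 2251 and 2522 in albino eyes, without overlap, and its difference of 0.29 ± 0.15 had an adjusted p of 0.243. RPS19, mutated in human Diamond-Blackfan anaemia, rose by 0.65 ± 0.15 (adjusted p = 0.0353), and RPS3, near the messenger RNA entry site, by 0.57 ± 0.14 (adjusted p = 0.0402). FAU, which encodes a fusion of a ubiquitin-like protein with the small subunit protein eS30, rose by 0.54 ± 0.13 (adjusted p = 0.0384). RPS6 (0.31 ± 0.16), RPL5 (0.35 ± 0.17), RPL11 (0.45 ± 0.14) and the ubiquitin fusion gene RPS27A (0.41 ± 0.15) did not pass, with adjusted p from 0.0801 to 0.231. The lowest values belonged to RPL7L1, a paralog of RPL7, at -0.23 ± 0.25 (adjusted p = 0.576), and LOC141106810, an uncharacterized row with the RPL37A symbol, at -0.43 ± 0.60 (adjusted p = 0.672).

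The number of calls in eyes depended on single libraries and on scaling. Leaving out any 1 of the 6 libraries left 3 to 6 members called: 3 without wild-type eyes 2 or albino eyes 1, 6 without albino eyes 2 and 5 without each of the others. With albino eyes 3, the albino eye library with the most crystallin transcripts, as the only albino eye library, the median member difference was 0.60. That fit takes the spread from the wild-type libraries alone, and its 0 members called, where 0.0634% of all genes tested were called higher, carry little information. With library totals in place of scaling by the trimmed mean of M values (TMM), 76 of 106 members were called higher (12.9% of all genes tested), with a median of 0.80 beside 0.28 for all genes. DESeq2 called 68 and limma on log2(FPKM + 1) called 93, while a single fit of all 18 libraries called 1. Shares of all genes called are not given here for these fits or for those without 1 library. Their counts alone therefore do not show a change particular to ribosomal protein genes. Crystallin genes and other marker lists moved with the genotype in eyes. The 18 cell cycle markers summed to 226 to 330 CPM in wild-type eyes and 100 to 118 CPM in albino eyes, with 17 of 17 tested markers called lower. Skeletal muscle markers summed to 1864 to 5535 CPM in wild-type and 6378 to 12952 CPM in albino eyes, without overlap. Of the 11 muscle markers 1 was called higher, their median difference was 1.01, and none was at 0 in either group. The part of these cells in the difference was not tested. When crystallin genes alone were left out of the counts, the median difference of the ribosomal protein genes was 0.51, with 31 called. Other transcripts of lens cells stayed in that fit, and the part of lens cells in the difference was not tested. The share of all genes called is not given here for that fit either. Its count alone therefore does not show a change particular to ribosomal protein genes.

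In skin no ribosomal protein gene was called between the genotypes. Of 108 members tested, 0 passed edgeR's test in either direction, where 0.0946% of all genes tested were called. No member had an unadjusted p under 0.05 in edgeR's test, where 2199 of 16921 genes tested did. DESeq2 and limma also called 0 members, and their shares of all genes called are not given here. The median difference of the members was 0.09, and it was -0.24 without albino skin 1. The libraries spread widely within each genotype: RPS6 had 2233, 2810 and 4116 CPM in wild-type skin and 4279, 2769 and 2467 in albino skin. RPLP0 had 3014, 4156 and 6503 against 5848, 3746 and 3229 CPM. In both genes wild-type skin 3 and albino skin 1 were the highest of their group, and the groups overlapped. The smallest p among members higher in albino skin belonged to LOC141105797, an RPL36A row with 7.75, 11.3 and 21.2 CPM in wild-type and 44.9, 13.5 and 11.6 CPM in albino (0.80 ± 0.60, adjusted p = 0.628). Albino skin 1 alone stood above the wild-type range. A p that misses the threshold does not show that the genotypes were alike.

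In liver the members lay somewhat higher in albino libraries, but 1 of 106 was called, where 2.86% of all genes tested were called higher. The median difference was 0.35, with 103 positive, and in 44 members the albino libraries lay above all wild-type libraries, against 14% of all genes. The 1 call held in 1 of 6 fits that left out a library, the one without albino liver 1. RPS21, a small subunit protein, had 361, 379 and 440 CPM in wild-type and 727, 577 and 587 in albino liver, without overlap, and missed the threshold (0.68 ± 0.20, adjusted p = 0.0847). RPL7L1 went the other way, with 16.6, 16.9 and 17.2 against 14.4, 12.3 and 10.1 CPM (-0.46 ± 0.17, adjusted p = 0.161). Erythrocyte markers summed to 3705 to 6946 CPM in wild-type and 6365 to 12705 CPM in albino liver, so the groups overlapped, with 3 of 9 called higher. Macrophage and granulocyte markers summed to 1099 to 2143 CPM in wild-type and 547 to 1036 CPM in albino liver, with 2 of 12 called lower and LYZ at 0. Lymphocyte markers summed to 195 to 323 against 84 to 185 CPM, with 0 of 13 called. Neither of these immune sums overlapped between the genotypes, and the part of these cells in the difference was not tested. Library totals moved the median of all genes in this comparison by -0.28, and the median of the members was then 0.08 with 0 called.

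Tests of whether the genotype difference itself differed between tissues called 0 members, and edgeR called 0.27% of all genes between skin and liver, 0.991% between eyes and skin and 3.42% between eyes and liver. Unadjusted p-values under 0.05 in edgeR's test numbered 0, 2 and 2 among the members. Over all genes tested they numbered 1762 of 18153, 2610 of 19477 and 3389 of 19128. DESeq2 called 0, 1 and 1 members, and limma on log2(FPKM + 1) called 0, 1 and 20. Shares of all genes called by DESeq2 and limma are not given here. Their counts alone therefore do not show a change particular to ribosomal protein genes. The member nearest to a call was RPS27L between eyes and liver, with a difference of differences of 0.90 ± 0.26 (adjusted p = 0.0855). The medians of the differences of differences were -0.28 for skin against liver, 0.44 for eyes against skin and 0.13 for eyes against liver. It is therefore not shown that the rise in albino eyes was particular to eyes.

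Between tissues, with TMM scaling, the change was far larger: almost every ribosomal protein gene was lower in eyes than in skin or liver. As shares of counts, albino eyes (8.35% to 9.86%) and albino liver (7.72% to 12.2%) overlapped. In wild-type, 106 of 108 tested members were lower in eyes than in skin, where 26.6% of all genes tested were lower, with a median log2 difference of -1.99. In albino, 106 of 109 were lower (29.2% of all genes), with a median of -1.57. Against liver, 106 of 108 were lower in wild-type eyes (30.4% of all genes; median -1.76) and 104 of 108 in albino eyes (30.3%; median -1.59). The wild-type and albino comparisons share no library: 105 members were called lower against skin in both, and 104 against liver in both. The share of all genes called lower in both genotypes is not given here. These counts of shared calls alone therefore do not show a fall particular to ribosomal protein genes. RPL5 shows the pattern, with 3579, 4544 and 6074 CPM in wild-type skin against 1148, 1459 and 1330 in wild-type eyes (-1.85 ± 0.30, adjusted p = 0.00172), and -1.62 ± 0.27 in albino (adjusted p = 0.00125). RPS19 differed by -1.87 ± 0.35 and -1.38 ± 0.34 in the same comparisons (adjusted p = 0.00364 and 0.00926), and RPLP0 by -1.53 ± 0.35 and -1.13 ± 0.29 (adjusted p = 0.00804 and 0.0103).

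**Figure D3:**
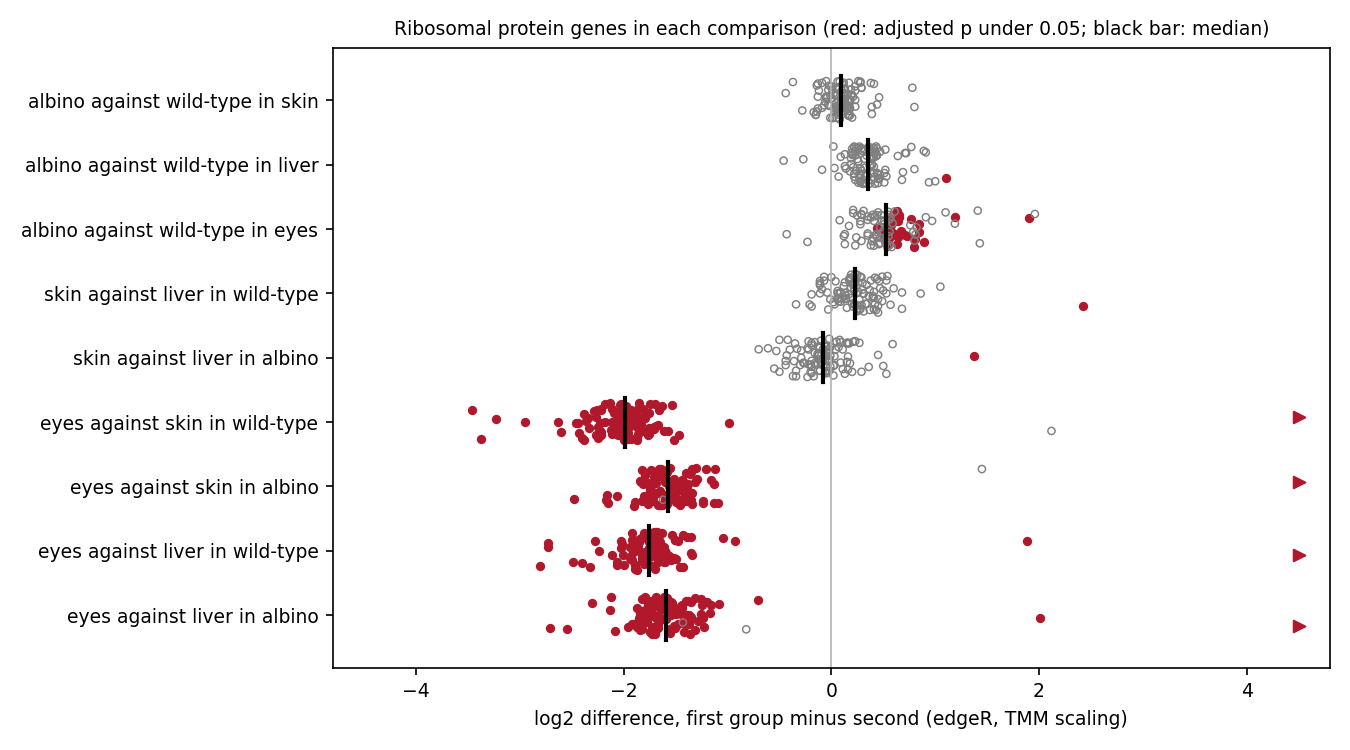
Log2 differences (first group minus second, edgeR with TMM scaling) of the tested ribosomal protein genes in 9 comparisons, each point 1 gene, red where the adjusted p is under 0.05, with the median as a black bar; arrowheads at the right edge stand for RPL3L, which lies beyond the axis. Points crowd near 0 in the skin genotype comparison and sit mostly to the right in those of liver (median 0.35) and eyes (median 0.52). They lie near -2 for eyes against skin in wild-type.

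The call against liver rested on how libraries were scaled. For eyes against skin, library totals moved the median of all genes less, to 0.101 in wild-type and 0.398 in albino. Counts of members called against skin with library totals are not given here. With library totals the median of all genes moved to 1.22 for wild-type eyes against liver and to 1.78 for albino eyes against liver. The members then had medians of -0.74, with 82 of 108 lower (16.2% of all genes), and -0.02, with 1 of 108 lower (13% of all genes). They lay below the median of all genes under both scalings. In liver the 10 most abundant genes held 25.7% to 37.6% of counts. With albino eyes 3 as the only albino eye library, 5 of 111 members were called lower than in skin (12.9% of all genes; median -1.48) and 90 of 110 lower than in liver (20.9% of all genes; median -1.49).

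Skin and liver differed little by the same test. In wild-type 1 of 106 members was called higher in skin (25.3% of all genes), and in albino 1 of 107 (24% of all genes), with medians of 0.23 and -0.08. Library totals gave another picture: 97 of 106 members were then called higher in wild-type skin (52.1% of all genes; median 1.09 beside 1.00 for all genes), and 96 of 107 in albino skin (64.4%; median 1.10 beside 1.30). Relative to the median of all genes the members thus lay close to it under either scaling. The 1 member called in both genotypes with TMM was LOC141117671, a FAU row. It had 19.8, 21.0 and 32.9 CPM in wild-type skin and 3.53, 4.42 and 5.78 in wild-type liver (2.42 ± 0.30, adjusted p = 0.000578), and in albino it had 33.7, 14.1 and 17.6 against 13.3, 5.95 and 5.97 CPM (1.37 ± 0.44, adjusted p = 0.0358). The wild-type call held without each library in turn, and the albino call in 3 of 6 such fits.

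Beyond the common fall in eyes with TMM scaling, a few members differed more than the rest. LOC141117671 also had the largest fall in wild-type eyes against skin, -3.46 ± 0.39 (adjusted p = 0.000343), followed by LOC141104958 (RPL37A, -3.37 ± 0.71), LOC141107122 (RPL26, -3.23 ± 0.70), LOC141141329 (RPL7, -2.95 ± 0.55) and LOC141147700 (RPL23A, -2.63 ± 0.82), all rows of at most a few CPM in eyes. Against liver the largest falls in wild-type eyes, among rows with a mean of at least 1 CPM in liver, were LOC141128041 (RPS27, -2.81 ± 0.20), RPS27L (-2.73 ± 0.20), RPL22L1, the paralog of RPL22 (-2.40 ± 0.27), LOC141141329 (-2.28 ± 0.58) and RPL39, a small protein of the exit tunnel (-2.11 ± 0.19). RPS27L had 74.3, 110 and 109 CPM in wild-type liver and 12.9, 14.9 and 16.5 in wild-type eyes. RPL7L1 fell least against liver in both genotypes, by 0.93 ± 0.20 in wild-type eyes (adjusted p = 0.0035) and by 0.71 ± 0.24 in albino eyes (adjusted p = 0.0253).

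RPL3L was the exception with a large rise. It was at 0 counts in the wild-type skin and liver libraries and in the albino liver libraries, and reached 18.8, 15.7 and 34.3 FPKM in wild-type eyes and 65.9, 98.4 and 142 FPKM in albino eyes. With 3 counts over the group as the floor, it was at least 1191-fold higher in wild-type eyes than in wild-type skin, at least 1263-fold higher than in wild-type liver, and at least 5684-fold higher in albino eyes than in albino liver. In albino skin all of its 105 counts came from library 2. That library also had the highest sum of skeletal muscle markers in skin, 256 CPM, where the other skin libraries had 1.74 to 25 CPM. Between the genotypes in eyes RPL3L had 26.4, 28.0 and 52.6 scaled CPM in wild-type and 83.7, 125 and 190 in albino, without overlap (1.90 ± 0.40, adjusted p = 0.0339). The call held in 2 of 6 fits without 1 library. With albino eyes 3 as the only albino eye library the log2 difference was 2.41. The summed muscle markers did not overlap between the genotypes in eyes either, with 1 of 11 called higher, and their part in the rise of RPL3L was not tested. LOC141106810, the other member higher in eyes, is a row of under 1 CPM. It carries the RPL37A symbol, but its description calls it uncharacterized. Its neighbour in the RefSeq order is another row with that symbol, LOC141104958. LOC141106810 was called against liver only, at 1.88 ± 0.68 in wild-type (adjusted p = 0.0392) and 2.01 ± 0.77 in albino (adjusted p = 0.0441).

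**Figure D4:**
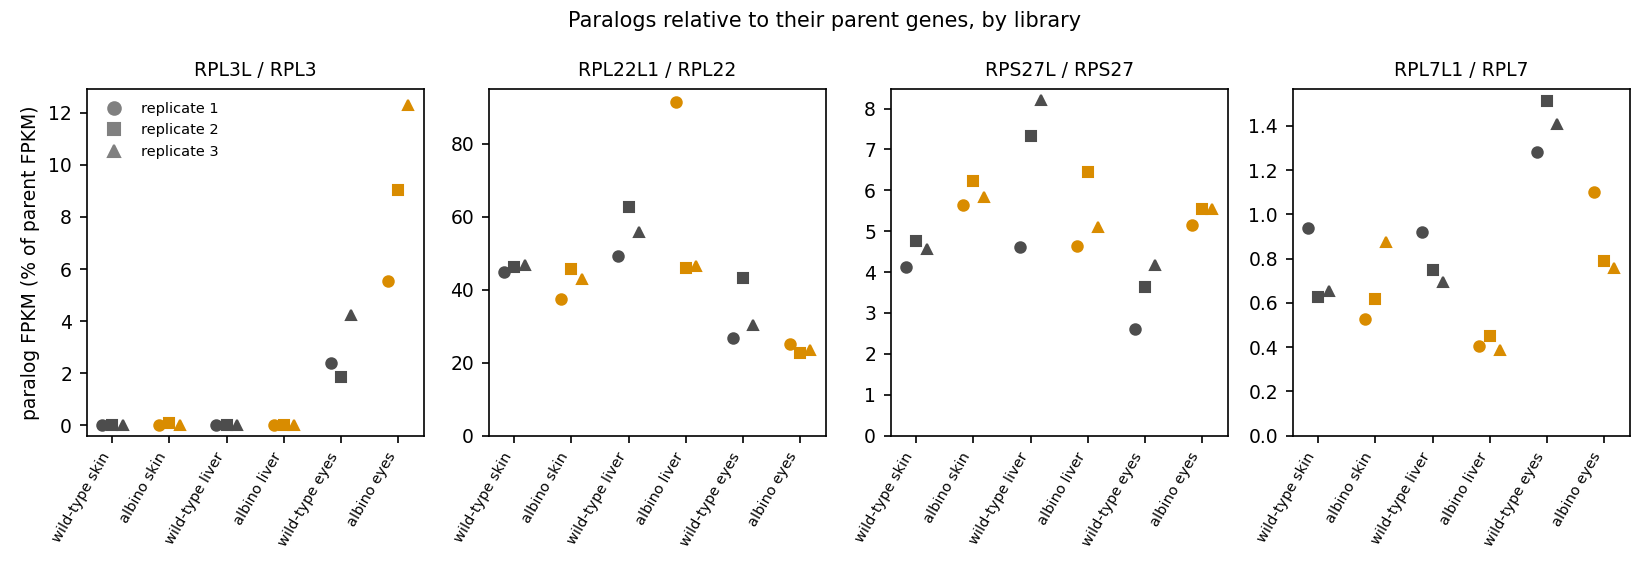
FPKM of 4 paralogs as a percentage of the FPKM of their parent genes, by library, grey for wild-type and orange for albino, with replicate numbers as symbols. RPL3L is above 1% of RPL3 in eyes only, RPL22L1 is lowest relative to RPL22 in albino eyes, and RPL7L1 is lower relative to RPL7 in albino than in wild-type liver and eyes.

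As a ratio to its parent within each library, a paralog's level does not depend on scaling. RPL3L reached 2.82 ± 1.24% of RPL3 in wild-type eyes and 8.96 ± 3.37% in albino eyes (SD, n = 3). RPL22L1 stood at 45.9 ± 0.903% of RPL22 in wild-type skin, 55.9 ± 6.68% in wild-type liver and 33.3 ± 8.66% in wild-type eyes, and at 42.1 ± 4.19%, 61.2 ± 26.2% and 23.7 ± 1.31% in the albino tissues. Albino liver 1 made the large spread, with 91.5% against a lowest value of 45.8%. RPS27L stood at 3.47 ± 0.795% of RPS27 in wild-type and 5.42 ± 0.231% in albino eyes, and at 4.49 ± 0.320% and 5.91 ± 0.305% in skin. In liver its means went the other way, with 6.71 ± 1.87% in wild-type and 5.4 ± 0.937% in albino, and the groups overlapped. RPL7L1 stood at 0.788 ± 0.118% of RPL7 in wild-type and 0.414 ± 0.0309% in albino liver, and at 1.40 ± 0.120% and 0.881 ± 0.187% in eyes. In skin it stood at 0.738 ± 0.174% in wild-type and 0.673 ± 0.181% in albino, with overlap. Of 11 such genotype comparisons of ratios, 6 had groups that did not overlap. Each of these 6 had an exact two-sided permutation p of 0.10, the smallest that 3 against 3 libraries allow, and an adjusted p of 0.183 over the 11.

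Rows that share a family name share reads to an unknown extent, since the treatment of multi-mapping reads was not given in the sources used here. In some families the main row is a locus number: LOC141128405 held 71.0% of RPLP2 counts, LOC141131356 held 94.2% of RPL37A counts and LOC141108761 held 98.2% of RPL36A counts. For the 23 lesser rows with at least 1000 counts, the share of the family's counts was taken in each library. Some shares were nearly fixed: LOC141102390 held 13.4% to 15.2% of RPS23 counts, LOC141129773 held 12.4% to 14.1% of RPL11 counts and LOC141139122 held 5.19% to 5.97% of RPL37A counts over all 18 libraries. In 11 of the 23 rows the highest share was over 1.5 times the lowest.

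Some rows with variable shares are described here, picked after their values were seen. LOC141117671 followed tissue, with 1.81% to 2.75% of FAU counts in the 6 skin libraries and 0.482% to 1.22% in the other 12. In LOC141105797 and LOC141110050 the share went with the replicate number within the albino libraries. LOC141105797 held 3.19%, 3.43% and 3.64% of RPL36A counts in skin, liver and eyes of albino replicate 1, but 1.07% to 1.77% in the other albino libraries and 1.27% to 1.70% in wild-type. LOC141110050 held 2.89%, 2.92% and 2.94% of RPS15A counts in the 3 tissues of albino replicate 3, close to the 2.66% to 3.34% of wild-type libraries, while albino replicates 1 and 2 lay between 1.53% and 2.13%. LOC141141329, at 0.0293% to 0.0975% of RPL7 counts, and LOC141128041, at 0.726% to 2.37% of RPS27 counts, also varied by more than 3-fold between libraries, and their tissues overlapped. Over the 23 rows, the same albino replicate had the highest share in all 3 tissues in 6 rows and the lowest in 7, and the same wild-type replicate in 4 and 4. Some such rows arise even where replicate numbers are unrelated between tissues. That rate is not given here, so these counts alone do not show that a number marks 1 animal. Albino and wild-type libraries did not overlap, in either direction, in 3 of the 23 rows in skin, 3 in liver and 10 in eyes. In 11 rows they overlapped in every tissue. In scaled CPM, the albino libraries lay all higher in 10.4% of all genes tested in skin, 14% in liver and 19% in eyes. They lay all lower in 9.4%, 14.6% and 17.6%. CPM and share are unlike measures, and these counts of rows alone do not show a genotype difference in the use of copies. No row of the 23 separated albino from wild-type libraries in all 3 tissues in one direction.

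**Figure D5:**
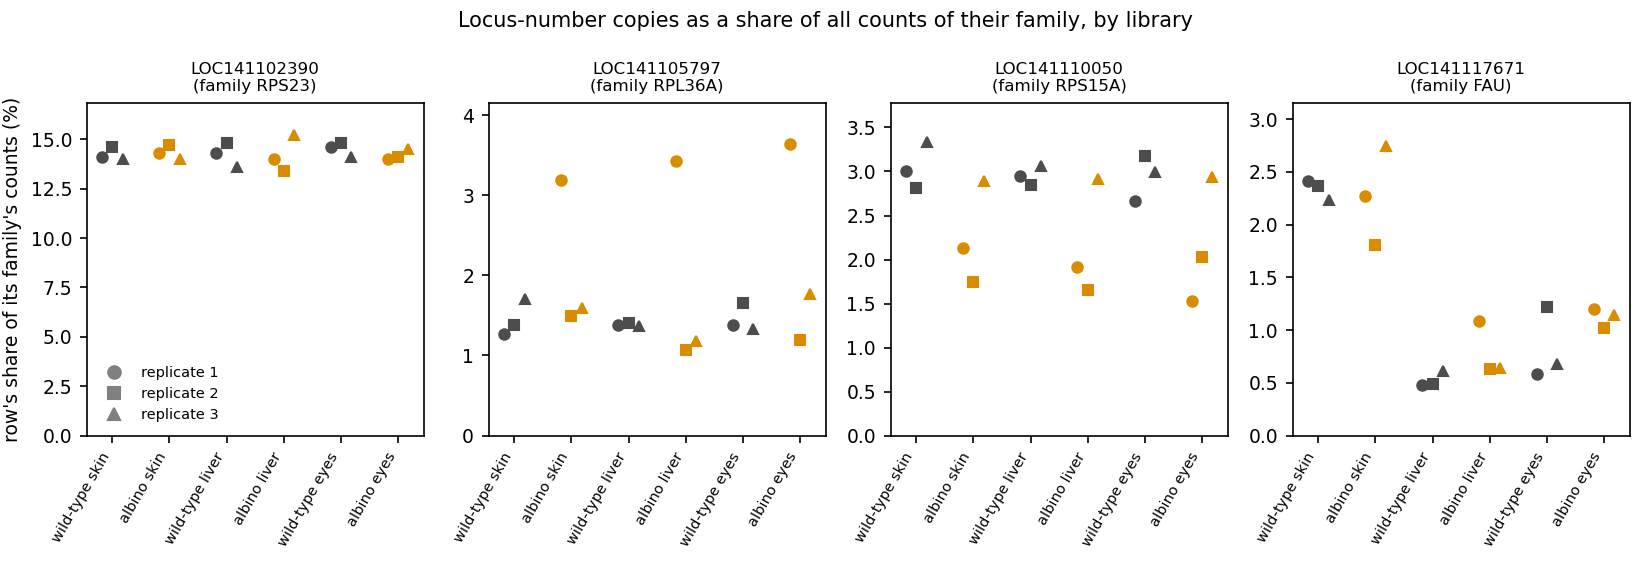
Share (%) of a family's counts held by 4 locus-number rows, by library, grey for wild-type and orange for albino, with replicate numbers as symbols. The RPS23 row stays between 13.4% and 15.2%, the FAU row is highest in skin, and the RPL36A and RPS15A rows keep the same albino replicates apart in all 3 tissues.

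Other genes of protein synthesis were called in both directions in albino eyes, where 5.1% of all genes tested were called higher and 6.1% lower. RACK1, a small subunit protein outside the naming rule, differed by 0.13 ± 0.15 (adjusted p = 0.59). Of 35 tested translation factors, 3 were called higher and 8 lower, both shares above those of all genes, with a median of -0.09. The elongation factor EEF1A2, which in mammals replaces EEF1A1 in muscle and neurons, rose from 451, 334 and 452 CPM to 906, 1404 and 1526 CPM (1.63 ± 0.23, adjusted p = 0.00814), beside the muscle markers given above, while EEF1A1 differed by -0.03 ± 0.15 (adjusted p = 0.927). EIF3F (0.63 ± 0.12) and EIF3K (0.61 ± 0.13), subunits of initiation factor 3, also rose. The subunits named here did not all move in one direction, and the other subunits are not described. With albino eyes 3 as the only albino eye library, the differences were 0.61 for EIF3F and 0.68 for EIF3K. In the same fit they were -0.56 for EIF3A and -0.83 for EIF3J, whose values in the main fit are not given here. EIF5, which helps select the start codon, fell by 1.72 ± 0.20 on the log2 scale (adjusted p = 0.00373), from 247, 419 and 365 CPM to 113, 101 and 99.0 CPM. With albino eyes 3 as the only albino eye library the differences were 1.88 for EEF1A2 and -1.80 for EIF5. Of 15 genes of ribosome-associated and other TOP messenger products, 1 was called higher and 3 lower, with a median of 0.07. The 3 were the RNA-binding protein gene HNRNPA1 (-0.58) and the importin genes IPO7 (-1.15) and IPO5 (-1.39).

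Of 18 tested regulators of ribosomal protein synthesis, 0 were called higher and 3 lower in albino eyes. LARP1, the binder of TOP messenger RNAs, had 85.4, 135 and 143 CPM in wild-type eyes and 27.7, 25.2 and 27.3 CPM in albino eyes (-2.18 ± 0.20, adjusted p = 0.00132). The groups lay far apart and the call held without each library in turn; with albino eyes 3 as the only albino eye library the difference was -2.16. MYC, a transcription factor that drives ribosome synthesis, differed by -1.68 ± 0.27 (adjusted p = 0.0119) and the S6 kinase gene RPS6KB1 by -0.89 ± 0.16 (adjusted p = 0.0164); with albino eyes 3 as the only albino eye library these were -1.45 and -0.74. LARP1 differed by 0.40 ± 0.25 in skin (adjusted p = 0.536) and by -0.61 ± 0.18 in liver (adjusted p = 0.0931), and the test of the difference between tissues gave -2.58 ± 0.32 for eyes against skin (adjusted p = 0.0113) and -1.60 ± 0.28 for eyes against liver (adjusted p = 0.0112). The calls of MYC, EIF5, EEF1A2 and IPO4 also held without each of the 6 libraries in turn. Ribosome biogenesis genes had 0 called higher and 3 lower of 52 tested, among them nucleolin, NCL (-0.56 ± 0.12, adjusted p = 0.0241). Of 14 chaperones and importers of ribosomal proteins, 0 were higher and 2 lower, the importins IPO4 (-1.56 ± 0.22) and KPNB1 (-0.68 ± 0.13). RNA polymerase I genes had 0 higher and 1 lower of 13, UBTF (-0.53 ± 0.10). The shares called lower of the biogenesis and RNA polymerase I genes lie near the 6.1% of all genes.

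Between eyes and skin the lists differed in how many genes were lower in eyes, where 26.6% of all genes tested were lower in wild-type and 29.2% in albino. Of all genes tested, 5352 of 18338 were higher in wild-type eyes and 5515 of 18309 in albino eyes. In wild-type, 18 of 35 translation factors were lower and 3 higher, and 27 of 51 biogenesis genes were lower and 1 higher, with medians of -0.76 and -0.80 beside -1.99 for the ribosomal protein genes and 0.00 for all genes. In albino 27 of 35 and 39 of 52 were lower, with medians of -1.05 and -1.16. Ribosome-associated genes had 8 lower and 4 higher of 15 in wild-type (median -1.22) and 9 lower and 2 higher of 15 in albino (-1.29). Regulators had 7 lower and 3 higher of 18 in wild-type (-0.04) and 5 lower and 4 higher of 17 in albino (-0.14). RNA polymerase I genes had 4 lower and 1 higher of 13 in wild-type (-0.18) and 7 lower and 0 higher of 13 in albino (-0.75). Chaperones and importers had 4 lower and 1 higher of 14 in wild-type (-0.39) and 6 lower and 1 higher of 14 in albino (-0.45). The shares called lower lie near those of all genes for regulators in albino. The same holds for RNA polymerase I genes and for chaperones and importers in wild-type. NPM1, a nucleolar chaperone of ribosome assembly, differed by -2.37 ± 0.23 in wild-type and -2.67 ± 0.23 in albino (adjusted p = 0.000171 and 4.23e-05). RACK1 also fell in wild-type eyes, by 1.78 ± 0.30 (adjusted p = 0.00213). LARP1 instead was higher in wild-type eyes than in wild-type skin, by 2.15 ± 0.25 (adjusted p = 0.000423), and in albino it differed by -0.43 ± 0.21 (adjusted p = 0.109).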

How the data were processed

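Gene counts and FPKM values were deposited by the authors as tables of 24636 genes and 18 libraries. Per the labels' protocols, RNA was extracted with TRIzol and made into libraries with a VAHTS Universal kit, and HISAT2 and HTSeq appear, with no versions, in the submitters' processing notes. Genome build, strand setting and treatment of multi-mapping reads were not given in the sources used here. The deposited counts per gene are raw, and the deposited FPKM values are scaled by length and depth. Gene descriptions and neighbours came from RefSeq for names only.

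Counts were compared with edgeR 4.0.16 (R 4.3.3; filterByExpr, TMM scaling, quasi-likelihood test, Benjamini-Hochberg adjustment over all genes tested), with the 2 groups of each comparison in the fit, or 4 groups for a difference of differences. CPM of single genes are TMM-scaled within the comparison, and summed CPM of marker lists are scaled by library totals. DESeq2 1.42.0 and limma 3.58.1 on log2(FPKM + 1) and log2(FPKM + 0.1) were alternatives, beside other scalings, no filter, a replicate block, all libraries in one fit, and each library left out. The scripts were tested on simulated data.

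Members and gene lists were chosen with earlier results of these data known. Named genes are those of smallest p in each genotype comparison, of largest difference in each wild-type tissue comparison (with a floor of 1 CPM on the mean of the higher group), the 5 highest and 5 lowest by FPKM, a fixed set of well-known members and paralogs, and up to 3 per pathway list and comparison. The copies compared by share of family counts, EIF3A, EIF3F, EIF3K, RACK1 and EEF1A1 were chosen after their values were seen. Same-numbered libraries deviated together (every r over 0.1) for skin and eyes in wild-type (0.347 to 0.479) and for all tissue pairs in albino (0.16 to 0.425), but not between genotypes. The main fits of tissue comparisons and of differences of differences did not model this. In genotype comparisons the replicate block joined libraries that did not deviate together (r from -0.155 to 0.0572 in eyes). No 2 libraries of a group agreed within counting noise. Values of some single genes are not reported here.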

Additional observations from a re-analysis of the deposited data

How the results depend on the processing

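The direction of the median difference of the ribosomal protein genes in albino against wild-type eyes was positive under every alternative run, but the count of calls ranged widely. From 35, it went to 68 with DESeq2, 76 with library totals (median 0.80), 93 and 94 with limma on log2(FPKM + 1) and log2(FPKM + 0.1) (medians 0.78 and 0.80), 5 with the replicate block, 1 in a fit of all 18 libraries, and 0 with albino eyes 3 as the only albino eye library (median 0.60 against 0.52), a fit whose spread comes from the wild-type libraries alone. Leaving out 1 library gave 3 to 6. Where no share of all genes called is given above, these counts alone do not show a change particular to ribosomal protein genes. RPL7L1 in eyes turned to 0.06 with library totals, 0.03 with limma at + 1 and 0.03 at + 0.1. In liver the 1 call became 5 with DESeq2 and 0 with library totals, the replicate block, the fit of all 18 libraries, both limma fits, or wild-type liver 2 and 3 summed, and 0 to 1 without 1 library. RPS27L in liver went to 0.00 with those libraries summed and ranged from -0.27 to 0.02 without 1 library. In skin, leaving out 1 library moved the median from -0.24 to 0.43, LOC141105797 from -0.09 to 1.29, LOC141110050 from -0.86 to 0.12, RPS27 from -0.67 to 0.01, LOC141142742 from -0.74 to 0.08 and RPL8 from -0.39 to 0.07.

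Skin against liver turned on scaling. In wild-type, library totals called 97 (median 1.09) and limma 103 (1.06) and 104 (1.08), and the median ranged from -0.13 to 0.41 without 1 library. In albino, library totals called 96 (1.10), limma 104 (1.08) and 104 (1.10), the fit of all 18 libraries 2, and leaving out 1 library gave 0 to 2 calls and medians from -0.40 to 0.13. Eyes against liver in wild-type had medians of -0.74 with library totals and -0.67 and -0.73 with limma. In albino it had 4 calls (median -0.02) with library totals and 6 (0.00) and 7 (0.00) with limma. Eyes against skin in albino had a median of -1.48 with albino eyes 3 alone, against -1.57 with all libraries. For differences of differences, eyes against skin had 1 call with DESeq2, 1 with limma at + 1 and 1 at + 0.1. Eyes against liver had 1 call with DESeq2, 4 with library totals (median 0.72), 20 (0.71) and 19 (0.74) with limma, and 0 to 1 without 1 library. The median for skin against liver ranged from -0.59 to 0.07. With library totals, 52.1% of all genes tested were called higher in wild-type skin than in liver, and 64.4% in albino skin. Shares of all genes called are not given here for the limma and DESeq2 fits. Their counts alone do not show a change particular to ribosomal protein genes. The cause of the shifts between settings was not tested.

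As a share of summed FPKM the members took 34.7% in wild-type skin, 36.4% in albino skin, 21.0% in wild-type liver, 22.1% in albino liver, 10.6% in wild-type eyes and 21.7% in albino eyes. Without the 10 most abundant genes they took 23.3% of counts in albino skin, 12.5% in wild-type liver, 14.1% in albino liver, 6.70% in wild-type eyes and 10.7% in albino eyes. Wild-type eyes had 5.42% without locus-number members and 6.43% without crystallin genes. The settings on albino eyes 3 and on crystallin genes were chosen after seeing the data. With 3 libraries a group, a call can rest on 1 library, and rows of under 1 CPM rest on few reads.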
